A study of Homo sapiens with 6 samples.

Results

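The cytosolic ribosome is built from ribosomal RNA and one copy each of nearly all of its ribosomal proteins, so the genes for these proteins are read together and at high levels in growing cells. Genes named RPL encode proteins of the large 60S subunit, which joins amino acids, and genes named RPS encode proteins of the small 40S subunit, which reads the mRNA. Their mRNAs are abundant and long-lived, and most begin with a 5′ terminal oligopyrimidine (TOP) tract, a C followed by a run of C and T at the transcription start. Growth signalling through mTORC1 sets how strongly TOP mRNAs are translated, and LARP1 binds the TOP tract and the poly(A) tail and protects these mRNAs. CNOT7 is a deadenylase of the CCR4-NOT complex, which shortens poly(A) tails and so starts the decay of many mRNAs. The comparison below asked how the levels of these mRNAs differed when CNOT7 was knocked down.

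Members were all protein-coding genes of the count table whose symbol is RPL or RPS with a number and at most one further letter and number, together with RPLP0, RPLP1, RPLP2 and RPSA. The rule was based on names and used no measured value. It found 86 of 58735 genes, which were 46 core 60S genes, 31 core 40S genes and 9 paralogs of core genes. Of these, 82 passed the filter on low counts and were tested among 17574 genes in all, so fold changes and calls cover these 82. The paralogs RPL10L and RPL39L had 0 counts in all 6 libraries, where 3 counts would correspond to 0.103 to 0.126 CPM. How multi-mapped reads were handled is not given, so a count of 0 may not mean that a gene is silent. CPM are counts scaled by library size, here with TMM factors, and are the unit of all levels below. RPS4Y1 and RPS4Y2 also had 0 counts in all 6 libraries and were not tested.

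Total RNA was sequenced from SW480, an established human colorectal cancer cell line, in 3 control libraries and 3 libraries with CNOT7 knocked down by short hairpin RNA, with no further treatment in either group. The paper names HCT116 for its RNA sequencing, whereas the labels name SW480, and the groups do not depend on this. Which hairpin each knockdown library carries is not given in the sources used here, nor whether libraries of a group came from separate cultures, so p-values measure the spread between these libraries, which may be technical. Totals were 23788451 to 25982493 counts in the control libraries and 27523812 to 29104872 in the knockdown libraries, and mitochondrially encoded genes took 6.36 to 6.88% and 6.54 to 7.40% of them. CNOT7 itself was at 169, 191 and 176 CPM in the controls and at 43.4, 47.2 and 38.6 CPM in the knockdown libraries. It fell by 2.05 on the log2 scale (SE 0.073, adjusted p = 2.64e-12), which left 24.1% of the control level. Of 10 colon epithelial markers 7 were expressed enough to be tested, with CDX1, KRT20 and LGALS4 near 0. VIL1 (log2 fold change 0.72) and CDH1 (0.51) were higher and KRT8 (-0.15) was lower in the knockdown libraries. Of 6 markers of other cell types, PTPRC, PECAM1, COL1A2 and ALB averaged at most 0.310 CPM in either group. COL1A1 averaged 8.43 and 9.15 CPM and was not called, and VIM, which this line is known to express, fell from 265 to 225 CPM (log2 fold change -0.24, SE 0.054, adjusted p = 0.00381). The part of these markers in the results below was not tested.

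Because the TOP tract sits at the first transcribed bases, the start of each called member is shown first, with 15 bases before and 15 bases from the RefSeq transcription start on GRCh38.p14. RPL22, the core gene related to RPL22L1, and RPS27L, a paralog whose start lacks the tract, are added for contrast and were chosen after their values were seen. Sequences run 5′ to 3′ on the gene's strand, and capitals mark the longest run of C and T.
RPL22L1, chr3:170870181-170870210, minus strand: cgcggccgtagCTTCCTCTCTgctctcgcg
RPS24, chr10:78033848-78033877, plus strand: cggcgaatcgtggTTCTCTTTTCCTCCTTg
RPL3, chr22:39319609-39319638, minus strand: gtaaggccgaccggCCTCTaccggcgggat
RPL12, chr9:127451392-127451421, minus strand: ccgcgcgatttccggCCTCTCggctttcgg
RPS26, chr12:56041903-56041932, plus strand: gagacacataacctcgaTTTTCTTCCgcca
RPL22, chr1:6199581-6199610, minus strand: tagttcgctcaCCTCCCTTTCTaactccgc
RPS27L, chr15:63157463-63157492, minus strand: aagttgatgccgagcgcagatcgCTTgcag

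A start was counted as TOP when its first transcribed base was C and at least the next 4 bases were C or T. It was read on the gene's strand only. For a gene with several listed starts any match was counted in the shares below, and the sequence shown is the first listed. By this rule RPL22L1, RPS24, RPL12 and RPL22 begin with a TOP tract, and RPL3, RPS26 and RPS27L do not at the annotated base. RefSeq start sequences were matched for 69 of the 86 members, and 48 of them (69.6%) had a TOP start, against 5.14% of the 27305 genes with a start sequence and 7.09% of the 11361 of these that were tested. Translation factors carried it in 11 of 12 genes with a sequence, ribosome biogenesis factors in 6 of 66 and mitochondrial ribosomal proteins in 6 of 69. The tract depends on the exact annotated base, so a gene without a match may start a few bases away.

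The ribosomal protein mRNAs moved little. Of the 82 tested members, 4 were higher and 1 was lower in the knockdown libraries by the quasi-likelihood test of edgeR, with p adjusted by Benjamini-Hochberg over all tested genes. Higher members made up 4.88% of those tested, where 13.3% of all tested genes were higher, and the lower one made up 1.22%, where 11.9% of all tested genes were lower. RPL22L1, RPS24, RPL3 and RPL12 rose and RPS26 fell. The split depended on the scaling. With library totals in place of TMM factors it was 10 higher and 1 lower. With the trend of fold change on abundance removed it was 14 higher and 1 lower. Of all tested genes, 16.3% were higher and 8.22% lower with library totals, and 12.4% and 10.5% with the trend removed. With the trend removed, the members' share of higher genes was thus above that of all tested genes. At an unadjusted p under 0.05 there were 8 of the 82 members, where 6389 of the 17574 tested genes were under it. The 3 of these members that were not called were RPL5, RPL14 and RPS7.

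Log2 fold changes of the members ran from -0.27 to 0.50 with a median of 0.02, where the median of all tested genes was 0.004. By sign, 49 were above 0 and 33 below. The median absolute log2 fold change was 0.055 over the members and 0.177 over all tested genes. Their standard errors were also smaller, with a median of 0.059 against 0.098. The 95% interval of the fold change lay wholly within 1.2-fold in either direction for 65 of the 82 members (79.3%) and for 24.0% of all tested genes. For most members a change above 1.2-fold was therefore outside the interval, and for the remaining 17 the interval reached past 1.2-fold. The 3 control and 3 knockdown values did not overlap for 14 members (17.1%), where 38.8% of all tested genes did not overlap.

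**Figure D1:**
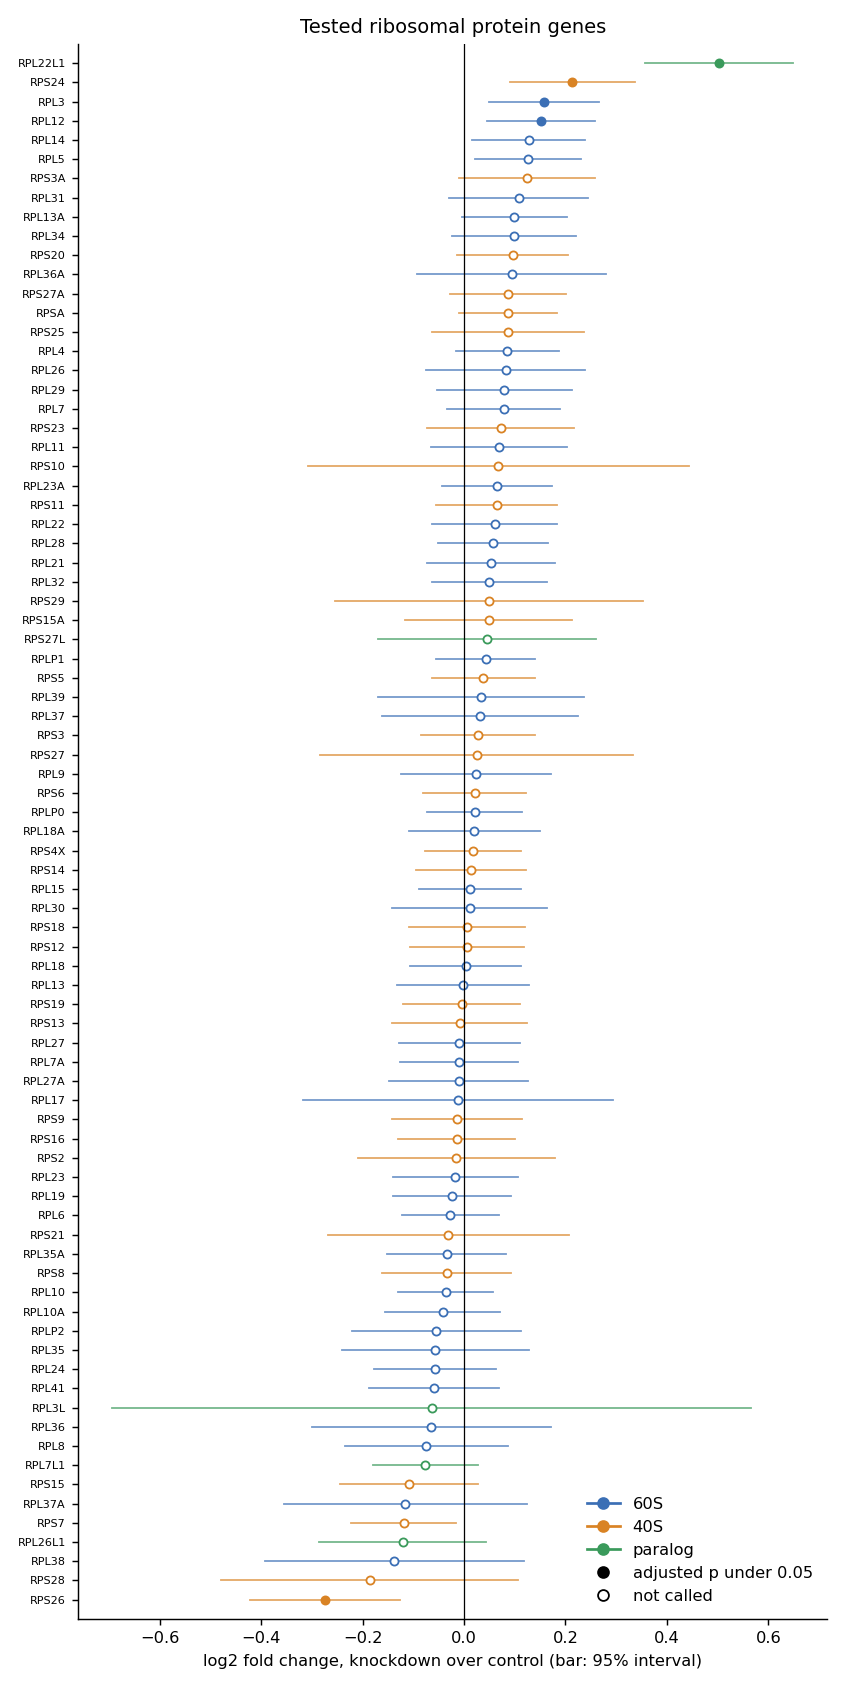
Log2 fold change of knockdown over control for 81 of the 82 tested ribosomal protein genes, ordered by value, with the 95% interval as a bar. Blue is 60S, orange 40S and green paralogs, and filled points are the 5 called genes, with RPL22L1 at 0.50 alone at the upper end and RPS26 at -0.27 at the lower end.

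As a share of all counts, the 86 members took 3.65, 3.39 and 3.72% in the control libraries and 3.76, 3.67 and 3.88% in the knockdown libraries. Control library 2 was the lowest and knockdown library 3 the highest, and the groups overlapped. The 60S genes took 2.05 to 2.25% in the controls and 2.22 to 2.36% in the knockdown libraries, and the 40S genes 1.31 to 1.43% and 1.41 to 1.48%. All of these are shares of a library. A change in the RNA content per cell or in the number of cells would not be seen in them and cannot be told apart.

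The 60S and 40S genes gave the same median log2 fold change. Among 46 core 60S genes, 2 rose (4.35%) and none fell (27 above 0, 19 below, median log2 fold change 0.02). Those that rose were RPL3 and RPL12. At an unadjusted p under 0.05 there were also RPL5 and RPL14 among the 60S genes. That limit was passed by 6389 of the 17574 tested genes. Among 31 core 40S genes, 1 rose and 1 fell (3.23% each, 20 above 0, 11 below, median 0.02), which were RPS24 and RPS26. Beside these, 13.3% of all tested genes were higher and 11.9% lower. Whether the subunits differed was not tested.

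RPL22L1 had the largest change of any member. It encodes a close relative of RPL22, an RNA-binding protein on the outer surface of the 60S subunit, and it can take that protein's place in the ribosome. It lies on chromosome 3 from 170864875 to 170870483 on the minus strand (GRCh38). Its level was 27.7, 27.7 and 27.1 CPM in the controls and 38.4, 40.3 and 38.2 CPM in the knockdown libraries, so every knockdown library was above every control. It rose by 0.50 on the log2 scale (SE 0.070, 95% interval 0.36 to 0.65, adjusted p = 4.26e-05), a fold change of 1.42. It was called under all 15 alternative settings, with log2 fold changes of 0.48 to 0.55.

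RPL22 was not called. Its level was 137, 132 and 123 CPM in the controls and 131, 142 and 136 CPM in the knockdown libraries, where the groups overlapped (log2 fold change 0.06, SE 0.058, adjusted p = 0.496). Within each library, RPL22L1 counts were 20.2, 21.0 and 21.9% of the RPL22 counts in the controls and 29.3, 28.4 and 28.1% in the knockdown libraries. This ratio was taken after the values were seen and is a description without a test.

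The other paralogs were not called. RPL7L1, a relative of RPL7 that works in ribosome assembly, was at 272, 271 and 274 CPM in the controls and at 254, 264 and 258 CPM in the knockdown libraries, with all knockdown libraries below the controls but not past the test (log2 fold change -0.08, SE 0.049, adjusted p = 0.285). RPL26L1, a near copy of RPL26, averaged 27.5 CPM in the controls and 25.3 CPM in the knockdown libraries (log2 fold change -0.12, SE 0.078). RPS27L, a relative of RPS27, averaged 14.1 and 14.5 CPM (log2 fold change 0.05, SE 0.10). RPL3L, the striated muscle counterpart of RPL3, was near 1 CPM in both groups and its interval of -0.69 to 0.57 was the widest of all members.

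RPS24, a 40S protein needed for maturation of the 18S ribosomal RNA, was at 343, 358 and 385 CPM in the controls. The knockdown libraries held 411, 450 and 398 CPM, all above the highest control. It rose by 0.21 on the log2 scale (SE 0.058, adjusted p = 0.0121). The gap between the closest libraries of the groups was small, and without control library 1 the adjusted p was 0.066.

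RPL3, which lies close to the peptidyl transferase centre, was at 1210, 1102 and 1125 CPM in the controls and at 1271, 1217 and 1346 CPM in the knockdown libraries. It rose by 0.16 on the log2 scale (SE 0.052, adjusted p = 0.0333). The call was lost without control library 2, control library 3, knockdown library 1 or knockdown library 3 (adjusted p = 0.106, 0.144, 0.125 and 0.162). RPL12, which forms the base of the stalk where translation factors dock, was at 511, 474 and 472 CPM in the controls and at 547, 525 and 546 CPM in the knockdown libraries. It rose by 0.15 (SE 0.050, adjusted p = 0.0345), and the call was lost without the same libraries, with adjusted p = 0.0966, 0.181, 0.173 and 0.101. For both genes the groups did not overlap.

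RPS26 was the one member that fell. It lines the mRNA exit channel of the 40S subunit and contacts the mRNA just upstream of the start codon, and mutations in it cause Diamond-Blackfan anemia, a failure of red cell formation. The controls held 185, 174 and 220 CPM and the knockdown libraries 159, 159 and 161 CPM, so the knockdown libraries were tightly grouped and the controls spread. It fell by 0.27 on the log2 scale (SE 0.071, 95% interval -0.42 to -0.13, adjusted p = 0.00832). Control library 3 was the highest, and without it the log2 fold change was -0.17 with an adjusted p of 0.0905.

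**Figure D2:**
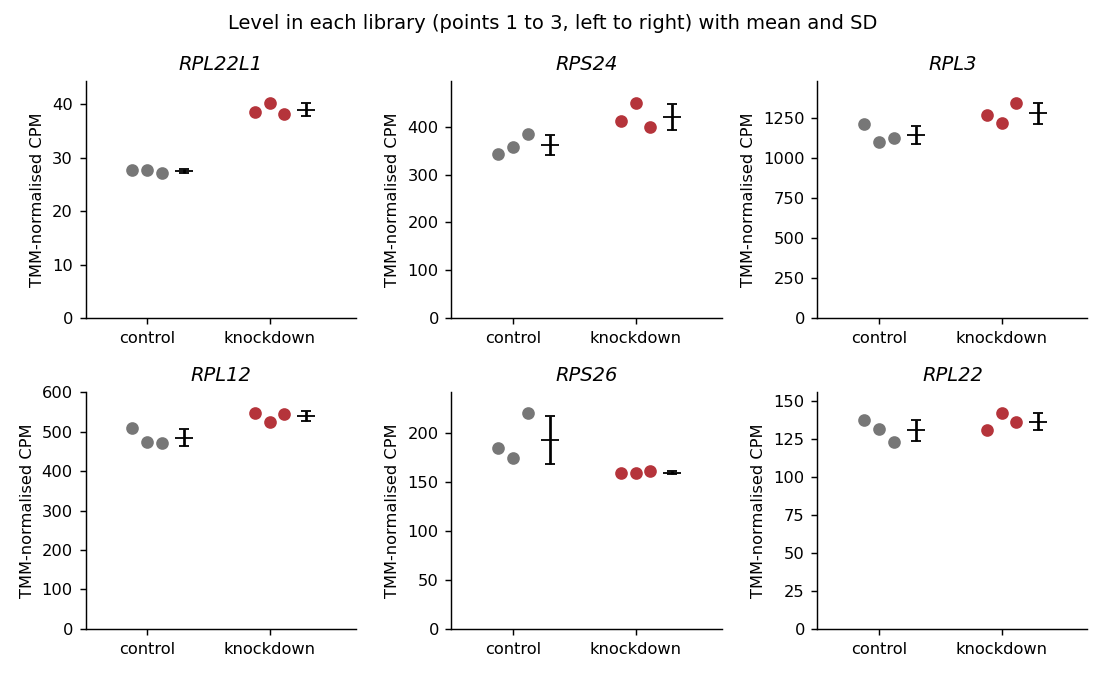
TMM-normalised CPM in each of the 3 control and 3 knockdown libraries for the 5 called members and RPL22, each axis starting at 0, with the group mean and SD beside the points. The RPL22L1 values rose from about 27 to between 38.2 and 40.3 CPM, the other called genes moved by 0.27 or less on the log2 scale, and the RPL22 values of the groups overlap.

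The stalk proteins RPLP0, RPLP1 and RPLP2, which recruit the GTPases of translation, were not called. RPLP0 was at 1356, 1317 and 1382 CPM in the controls and at 1348, 1379 and 1389 CPM in the knockdown libraries (log2 fold change 0.02, SE 0.045). RPLP1 was at 588, 581 and 588 CPM and at 591, 602 and 616 CPM (log2 fold change 0.04, SE 0.046). RPLP2 was at 282, 236 and 280 CPM and at 255, 226 and 287 CPM (log2 fold change -0.05, SE 0.079). Of the 4 stalk genes, RPL12 included, 1 was therefore higher and 0 lower, beside 13.3% and 11.9% of all tested genes.

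RPL5 and RPL11 form the 5S particle with 5S ribosomal RNA and, when ribosome assembly is disturbed, the free particle binds the ubiquitin ligase MDM2. RPL5 was at 582, 603 and 609 CPM in the controls and at 634, 688 and 636 CPM in the knockdown libraries, without overlap (log2 fold change 0.13, SE 0.050, adjusted p = 0.0746). It passed the threshold with library totals (adjusted p = 0.0121) and with the abundance trend removed (adjusted p = 0.00363). RPL11 was at 367, 308 and 356 CPM and at 366, 340 and 375 CPM, with overlap (log2 fold change 0.07, SE 0.063, adjusted p = 0.470). Of 5 genes listed for the MDM2 arm of this response, 2 rose and none fell, beside 13.3% and 11.9% of all tested genes. The 2 that rose were CDKN1A, the cell cycle inhibitor p21 (97.5 to 122 CPM, log2 fold change 0.32, SE 0.064, adjusted p = 0.00124), and MDM4, a relative of MDM2 (log2 fold change 0.25, SE 0.072, adjusted p = 0.0166). MDM4 lost its call without control library 2 (adjusted p = 0.0717) or knockdown library 1 (adjusted p = 0.0556). MDM2 averaged 47.7 and 44.0 CPM and did not pass the test.

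RPS6, the 40S protein phosphorylated by S6 kinase, averaged 671 CPM in the controls and 681 CPM in the knockdown libraries (log2 fold change 0.02, SE 0.048). RPS19, the gene most often mutated in Diamond-Blackfan anemia, was at 708, 661 and 764 CPM and at 711, 686 and 727 CPM (log2 fold change -0.005, SE 0.055). Of 20 ribosomal protein genes linked to this anemia, 1 rose (RPS24, 5%), 1 fell (RPS26, 5%) and 18 were not called. Their median log2 fold change was 0.04. Among all tested genes, 13.3% were higher and 11.9% lower. Among 8 proteins of the peptide exit tunnel none were called (median 0.05). Among 7 proteins of the mRNA path and decoding head, RPS26 was the gene called.

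Genes for ribosomal proteins that the naming rule leaves out were not called either. FAU encodes RPS30 as a fusion with a ubiquitin-like sequence, RACK1 is a scaffold on the 40S head, and RPL36AL is a relative of RPL36A. Log2 fold changes were -0.13 (SE 0.071) for FAU, 0.04 (SE 0.044) for RACK1 and -0.13 (SE 0.081) for RPL36AL. FAU passed the threshold without control library 2 (log2 fold change -0.21, adjusted p = 0.0180).

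The calls were also counted by the TOP start, with no test between the classes. Among all tested genes, 13.3% were higher and 11.9% lower. Of 47 tested members with a TOP start, 3 rose (6.38%) and 0 fell (median 0.02). Of 19 tested members without one, 1 rose and 1 fell (5.26% each, median -0.01). Of 16 tested members with no start sequence none were called (median 0.03). The introns of many ribosomal protein genes carry small nucleolar RNAs, which guide ribosomal RNA modification. Among 28 members with such a gene inside, 2 rose (7.14%) and none fell (median 0.03). Among 54 tested members without one, 2 rose (3.70%) and 1 fell (1.85%), with a median of 0.02. The 12 members on chromosome 19 had no call.

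Most members are abundant mRNAs, so they were set beside other genes of such abundance. Across all tested genes the log2 fold change went down with average log2 CPM (across genes, Pearson's r -0.23, Spearman's rho -0.23, n = 17574), and across the members it did not (r -0.01, rho 0.06, n = 82). These points share the same 6 libraries, and genes are not independent. At or above the median abundance of the tested members, an average log2 CPM of 8.61, there were 258 other genes. Of these, 24 (9.30%) rose and 98 (38.0%) fell, with a median log2 fold change of -0.10. The 41 members at that abundance held 2 that rose and none that fell, with a median of 0.02. With the abundance trend removed, 43 of the 258 were higher and 58 lower (median -0.02), and with library totals 31 were higher and 69 lower (median -0.05). Whether the members differ from these genes was not tested, since no list test was run.

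**Figure D3:**
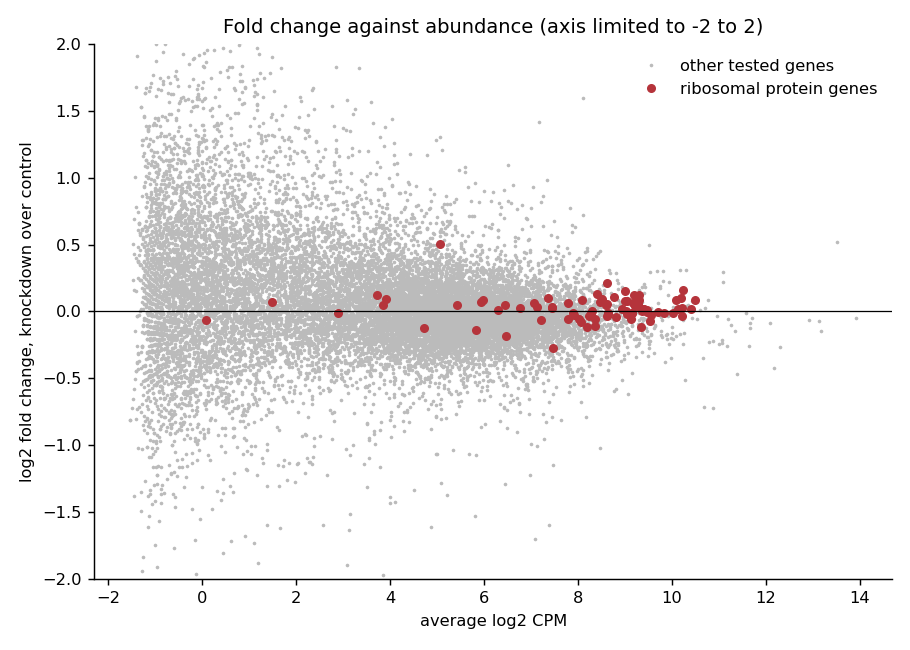
Log2 fold change against average log2 CPM for all 17574 tested genes (grey) and the 82 members (red), with 75 genes outside the axis limits of -2 and 2. The members sit mostly at high abundance and close to 0, where the other abundant genes have a median of -0.10.

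Levels between genes were compared per length, as mean CPM over all 6 libraries per kilobase of coding sequence, which leaves out untranslated regions. The 77 core genes spanned 5.46 to 7426 on this scale, with a median of 900, and the medians were 906 for 60S and 856 for 40S genes. Ribosomes hold most of these proteins in equal number, but the mRNA levels were not equal. RPL41, a very short peptide encoded by 75 coding bases, was highest, and its value is raised by the short denominator. RPL13A, known also as a regulator in interferon responses, followed at 1908 and RPL10, a late-joining 60S protein, at 1842. RPL13A had values of 1147, 1073 and 1146 CPM in the controls and 1194, 1155 and 1256 CPM in the knockdown libraries, without overlap (log2 fold change 0.10, SE 0.049, adjusted p = 0.157), and it passed the threshold with library totals (adjusted p = 0.0426) and with the abundance trend removed (adjusted p = 0.0187). RPL10 averaged 1198 and 1168 CPM (log2 fold change -0.04, SE 0.044) and RPL41 568 and 546 CPM (log2 fold change -0.06, SE 0.061).

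The 2 lowest core levels lay on genes whose exons are shared with another gene. RPS10 was at 5.46 per kilobase, and 39.4% of its exonic bases are shared on the same strand with another annotated gene, among them the readthrough RPS10-NUDT3. RPL17 was at 13.3 with 32.7% shared. Sharing did not always go with a low level, since RPL13A, at 1908, had 17.3% shared. Rows of the readthrough genes RPS10-NUDT3, RPL17-C18orf32 and RPL36A-HNRNPH2 held 0 or 1 count in each library. How reads over several genes were handled is not given in the sources used here, so these levels are uncertain. On the opposite strand, 7 members share over 10% of their exonic bases with another gene, RPL10 the most at 52.7%, and with the strand setting unknown such reads cannot be told apart. The fold changes of these members were 0.07 (SE 0.18) for RPS10 and -0.01 (SE 0.15) for RPL17.

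Ribosomal protein genes have left many processed pseudogenes, and reads can fit parent and copy alike. The table held 1144 pseudogene rows named after 77 of the members, 500 of them with at least 1 count, and together they held 216407 counts where the members held 5883264. For 8 members the pseudogene counts exceeded 10% of their own, led by RPS10 at 250% and RPL9 at 182%, with RPS28 at 53.9% and RPL21 at 11.7%. RPL21, a 60S gene on chromosome 13 with many copies, was at 361, 387 and 406 CPM in the controls and at 381, 433 and 384 CPM in the knockdown libraries (log2 fold change 0.05, SE 0.060). With the pseudogene counts added to each parent, 5 members were higher and 1 lower. RPS10 joined the called genes there (log2 fold change 0.38, adjusted p = 0.0187), and it was not called on its own counts in the fit as reported (adjusted p = 0.828).

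Short members were high together in a single control library. The core genes with a coding sequence under 300 bases, a limit set after the values were seen, number 9. They are RPL37, RPL37A, RPL38, RPL39, RPL41, RPS21, RPS27, RPS28 and RPS29. RPS27 was at 87.5, 87.0 and 148 CPM in the controls and at 110, 124 and 95.4 CPM in the knockdown libraries. RPS28 was at 79.2, 73.9 and 129 CPM and at 85.9, 86.1 and 76.1 CPM. In all 9 of these genes control library 3 was the highest of the 6 libraries, as it was for 19 of the 68 longer core genes. The median log2 ratio of the short genes to the control mean was -0.15, -0.31 and 0.37 in the controls and -0.02, -0.07 and -0.14 in the knockdown libraries. Over the 77 core genes, the log2 ratio of control library 3 to the control mean went down with coding length (r -0.48, rho -0.56, as a description across genes of that library).

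None of the 9 short genes was called. Their log2 fold changes ran from -0.19 for RPS28 (SE 0.14) to 0.05 for RPS29 (SE 0.14). Without control library 3, RPS27 and RPS29 were higher at an adjusted p under 0.05 and RPS26 lost its call, so that 4 members were higher and none lower. Without control library 2, RPS28, RPS15 and RPS7 joined RPS26 among the lower members and RPS3A was higher, with 3 higher and 4 lower. Of all tested genes, 9.20% were higher and 7.56% lower without control library 3, and 11.8% and 11.2% without control library 2. The part of messenger length in these differences was not tested.

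**Figure D4:**
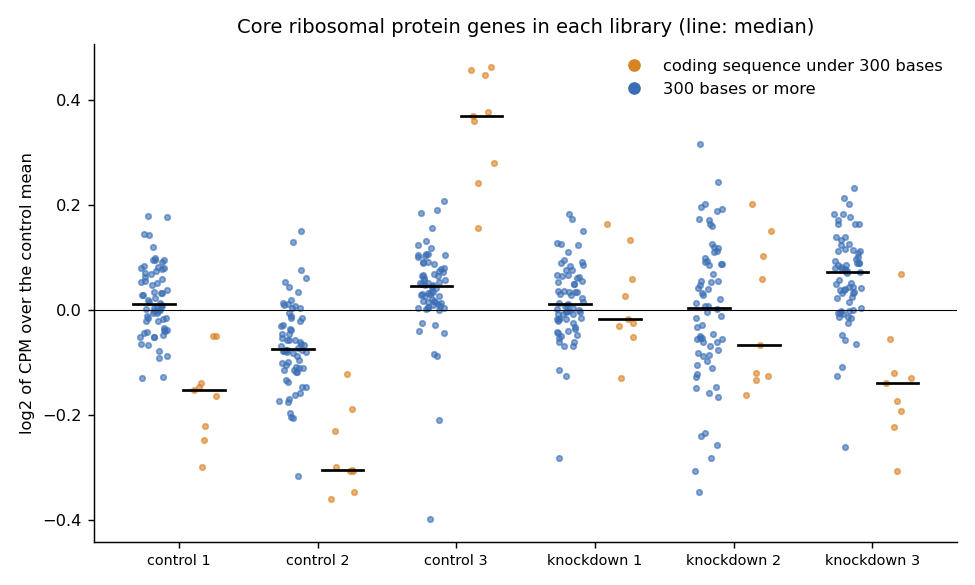
Log2 of each library's CPM over the control mean for the 77 core ribosomal protein genes, with genes of coding length under 300 bases in orange, longer ones in blue and medians as lines. The short genes lie at a median of 0.37 in control library 3 and at or below -0.02 in the other libraries.

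The wider translation machinery was read from lists of known function. Of 18 tested genes on the translation factor list, which includes NAP1L1, 4 rose (22.2%) and 2 fell (11.1%). Among all tested genes, 13.3% were higher and 11.9% lower. NAP1L1, a histone chaperone with a TOP mRNA, averaged 416 CPM in the controls and 491 CPM in the knockdown libraries (log2 fold change 0.24, SE 0.057, adjusted p = 0.00539). EEF2, the elongation factor of translocation, was at 2081, 1885 and 2050 CPM and at 2358, 2231 and 2401 CPM (log2 fold change 0.22, SE 0.049, adjusted p = 0.00375). EIF4A2, an initiation helicase, rose by 0.21 (SE 0.053, adjusted p = 0.0076) and its cofactor EIF4B by 0.18 (SE 0.047, adjusted p = 0.00783). EEF1A1 and EEF1D, of the factor that delivers aminoacyl-tRNA, fell by 0.15 (SE 0.042, adjusted p = 0.0147) and by 0.20 (SE 0.064, adjusted p = 0.0276). EEF1G, another subunit of that complex, was listed at 0 in all 6 libraries although cells in general use it, and was not tested.

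Of 78 tested ribosome biogenesis factors, 2 rose (2.56%) and 15 fell (19.2%), beside 13.3% higher and 11.9% lower among all tested genes. By sign 21 were above 0 and 57 below, the median was -0.07 on the log2 scale, and the list was not tested as a set. The falls included NIP7, a factor of 60S assembly that went from 53.7 to 42.4 CPM (log2 fold change -0.34, SE 0.066, adjusted p = 0.00105). LTV1, a 40S export factor, went from 20.9 to 16.5 CPM (log2 fold change -0.34, SE 0.093, adjusted p = 0.0136), and it was not called without knockdown library 3 (adjusted p = 0.06). NOP56, a core protein of the box C/D particles that methylate ribosomal RNA, went from 240 to 193 CPM (log2 fold change -0.31, SE 0.051, adjusted p = 0.000219). POLR1D, a subunit shared by RNA polymerases I and III, rose from 101 to 137 CPM (log2 fold change 0.44, SE 0.061, adjusted p = 4.65e-05). NMD3, the 60S export adaptor, rose by 0.29 (adjusted p = 0.00177). Among 9 dedicated chaperones and partners of ribosomal proteins, 2 rose (22.2%) and 1 fell (11.1%), beside 13.3% and 11.9% of all tested genes. The genes that rose were AATF, a nucleolar factor of early 40S assembly, at 0.40 (SE 0.052, adjusted p = 2.23e-05), and NAP1L1 as above. GRWD1, the chaperone of RPL3, fell by 0.30 (SE 0.067, adjusted p = 0.0035).

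Of 78 mitochondrial ribosomal protein genes, 1 rose and 11 fell (19 above 0, 59 below, median -0.08). The lower ones were 14.1% of the list, near the 11.9% of all tested genes, and the higher one was 1.28%, beside 13.3%. MRPL49 went from 96.9 to 71.8 CPM (log2 fold change -0.43, SE 0.060, adjusted p = 4.67e-05), MRPL36 from 26.3 to 19.8 CPM (-0.41, SE 0.077, adjusted p = 0.000719) and MRPL15 from 40.6 to 31.3 CPM (-0.38, SE 0.075, adjusted p = 0.00131). The cytosolic and mitochondrial counts stand side by side here, and the difference between the lists was not tested.

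The regulators of growth signalling and of TOP mRNAs reached larger fold changes than any ribosomal protein gene. Of 26 tested, 7 rose and 2 fell, which is 26.9% and 7.69% beside 13.3% and 11.9% of all tested genes. By sign the list ran the other way, with 9 above 0, 17 below and -0.05 as the median log2 fold change. DEPTOR, an inhibitor bound to mTOR, was low at 0.545, 0.559 and 1.04 CPM in the controls and 2.27, 2.39 and 2.15 CPM in the knockdown libraries (log2 fold change 1.66, SE 0.27, adjusted p = 0.000215). DDIT4, the stress-induced mTORC1 inhibitor REDD1, was at 22.0, 21.1 and 21.1 CPM and at 38.8, 35.0 and 44.1 CPM (log2 fold change 0.88, SE 0.086, adjusted p = 1.16e-06). In both genes every knockdown library was above every control.

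SESN3, a sestrin that acts upstream of mTORC1, rose from 94.6 to 162 CPM (log2 fold change 0.77, SE 0.061, adjusted p = 6.72e-08). EIF4EBP2, a repressor of the cap-binding protein eIF4E, rose from 207 to 342 CPM (log2 fold change 0.72, SE 0.051, adjusted p = 1.82e-08). PDCD4, an inhibitor of the eIF4A helicase, rose by 0.45 (SE 0.068, adjusted p = 0.000103). MYC, a transcription factor that drives ribosome production, rose from 249 to 325 CPM (log2 fold change 0.39, SE 0.051, adjusted p = 2.52e-05). MYCN, its relative, was low in all libraries at 0.12 to 0.30 CPM in the controls and 0.67 to 1.38 CPM in the knockdown libraries (log2 fold change 2.15, SE 0.44, adjusted p = 0.00176). AKT1S1, the mTORC1 component PRAS40, fell from 77.8 to 58.9 CPM (log2 fold change -0.40, SE 0.077, adjusted p = 0.000925). LARP4, a poly(A)-binding protein reported to act on ribosomal protein mRNAs, fell from 188 to 150 CPM (log2 fold change -0.32, SE 0.056, adjusted p = 0.000391). LARP1 itself averaged 445 and 424 CPM (log2 fold change -0.07, SE 0.048, adjusted p = 0.307) and MTOR 147 and 135 CPM (log2 fold change -0.12, SE 0.052, adjusted p = 0.0988). The genes EIF4B, EEF1A1, EEF1D, NOP56, NMD3, SESN3, EIF4EBP2, PDCD4, MYC, AKT1S1, LARP4, LARP1, MTOR, MDM2, RPL14, RPS7, RPS15, RPS3A, RPL9 and the short members other than RPL41 were named after their values were seen. Activity of mTORC1 and translation were not measured in these data.

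**Figure D5:**
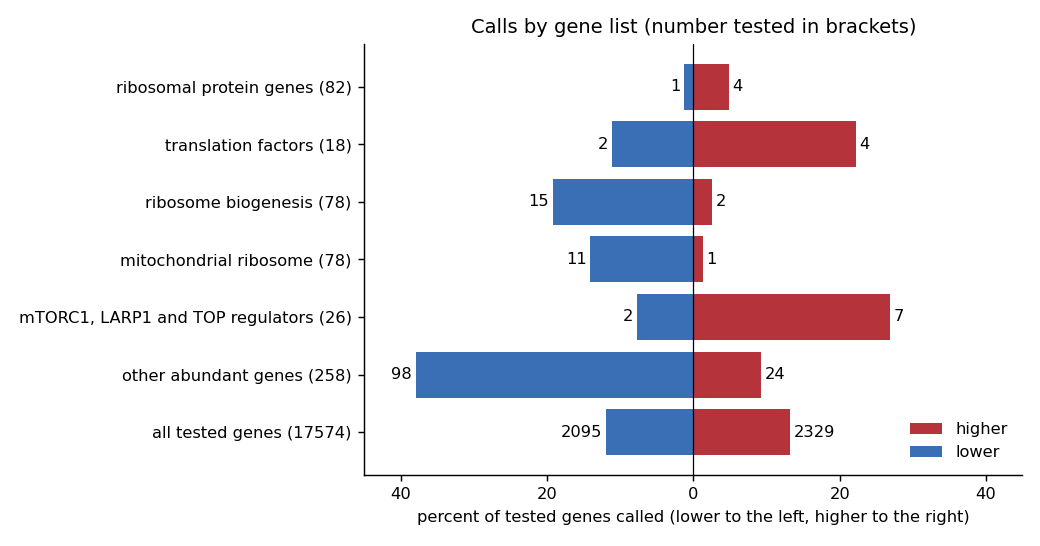
Percent of tested genes called lower (blue, to the left) and higher (red, to the right) in the knockdown libraries for the ribosomal protein genes and 4 lists of related function, beside the 258 other genes of like or higher abundance and all tested genes, with the number called at each bar. The ribosomal protein genes have 4 higher and 1 lower of 82, and the abundant other genes 24 higher and 98 lower.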

How the data were processed

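The authors deposited raw counts of reads per gene for 3 control and 3 CNOT7 knockdown libraries, without normalization. Submitters' processing notes name CASAVA 1.8, fastp, HISAT2 2.0.5, featureCounts 1.5.0-p3, DESeq2 1.20.0 and GRCh38. Strand setting and the handling of multi-mapped reads are not given in the sources used here. Groups were taken from the sample titles. The number of columns of other samples was 0. Gene identifiers matched GENCODE 29 in 58724 of 58735 rows, and start sequences came from RefSeq on GRCh38.p14.

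Counts were analysed with edgeR 4.0.16 in R 4.3.3 (filterByExpr, TMM factors, glmQLFit and glmQLFTest, Benjamini-Hochberg adjustment over all tested genes, threshold 0.05, no minimum fold change, no covariate). CPM are TMM-normalised and were computed here. The SE is the absolute log2 fold change over the square root of F, and intervals are 95% and show the precision at this depth. A limit of 3 counts for a gene at 0 covers counting error only. No list was tested as a set.

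Members and lists were chosen with earlier results of these data known. Named genes were CNOT7, up to 8 called members in each direction, all paralogs, the 3 highest and 3 lowest core members per kilobase, members picked by role, the 3 most changed called genes of each list, and ribosomal protein genes outside the naming rule. A few of these are not reported here. The procedure was tested on simulated counts. Alternatives were DESeq2 1.42.0, RLE factors, library totals, TMM factors without the members, removal of the abundance trend with limma 3.58.1, no filter, at least 10 counts in every library, pseudogene counts added, a replicate block and each library left out.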

Additional observations from a re-analysis of the deposited data

How the results depend on the processing

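Of 15 alternatives, 9 kept all libraries and 6 left one out, where a group of 2 remained. CNOT7 (log2 fold change -2.13 to -1.98) and RPL22L1 (0.48 to 0.55) were called in all 15, RPS24 and RPS26 in 14, RPL3 in 11 and RPL12 in 10. The members stood at 4 higher and 1 lower with the same genes under RLE factors, TMM factors without the members and at least 10 counts in every library. In these fits 12.8 to 13.9% of all tested genes were higher and 11.9 to 12.7% lower. DESeq2 gave 2 lower (RPS7 added), as did no filter (RPS28 added, and RPL12 lost at adjusted p = 0.0892). With DESeq2 10.8% of all tested genes were higher and 12.7% lower, and without the filter 6.38% and 6.79%. Library totals gave 10 higher and 11 in all, where 16.3% of all tested genes were higher. Removal of the abundance trend gave 14 higher and 15 in all, where 12.4% of all tested genes were higher. The cause was not tested. Leaving out 1 library gave 2 to 5 higher, 0 to 4 lower and 3 to 7 in all, and 30 to 56 called genes over the pathway lists (48 with all libraries). The 2 higher members came without knockdown library 1 or 3, the 4 lower without control library 2, the 0 lower without control library 3, and the pathway lists fell to 31 without control library 3 and to 30 without knockdown library 1. The median of the members was 0.00 to 0.08 with all libraries and -0.02 to 0.05 with one left out. It was below 0 without control library 2. The members' mean share of counts, higher by 0.18 percentage points in the knockdown libraries, was higher by 0.088 (without control library 2) to 0.25 with one library left out and by 0.19 with pseudogene counts added.

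Over all tested genes, deviations from the group mean did not clearly pair the libraries by replicate number. Same-number deviations correlated at 0.02, 0.15 and -0.02, and not every library correlated best with its own number. Library 2 had the lowest member share in both groups (3.39% in the controls and 3.67% in the knockdown libraries). With the replicate block 13 members were higher and 3 lower, 16 in all, and 95 genes of the pathway lists were called. Of all tested genes, 18.2% were higher and 18.8% lower with the block. RPL5 (adjusted p = 0.00265), RPL13A (0.0115) and FAU (0.0057) passed the threshold there. Whether libraries of the same number share a batch was not tested.

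Small values near 0 changed sign. With library totals these were RPL17 at 0.035, RPL10 at 0.011 and RPS19 at 0.042. With the abundance trend removed they were RPS10 at -0.067, RPL10 at 0.044, RPL41 at 0.014, RPLP2 at 0.011 and RPS19 at 0.071. With one library left out the ranges were -0.18 to 0.088 for RPL17, -0.012 to 0.039 for RPS6, -0.032 to 0.11 for RPS27L, -0.0056 to 0.12 for RPL11, -0.12 to 0.024 for RPL41, -0.057 to 0.048 for RPS19, -0.31 to 0.12 for RPL3L, -0.15 to 0.027 for RPLP2 and -0.011 to 0.091 for RPL21. None of the values that changed sign passed the threshold. MYCN had no value under at least 10 counts in every library. With 3 libraries a group, differences under about the interval half-width of a gene (median 0.12 over the members) could not be told from 0.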
